A study of Mus musculus with 10 samples.

Results

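Kinesins are the genes described here: all genes on the array whose symbol is Kif followed by a digit. For each symbol the value is that of the probe set assigned to this symbol alone that had the highest mean over the 10 arrays, which gave 37 kinesin genes of 18194 genes measured. They stand on 99 single-symbol probe sets. By known function 12 were placed among the mitotic kinesins, 15 among the transport kinesins and 10 among the other kinesins, and 33 of the 37 passed the filter on low values (log2 above 4 on at least 3 arrays) and were tested. Kif2b, Kif14, Kif26a and Kif28 were not tested, since their values lay below log2 4 on every array, except for 1 GC B1-8 array in the case of Kif26a. Kif19a and Kif19b lack a probe set assigned to them alone and were not analysed here.

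The series measured RNA from sorted splenic B cells on Affymetrix oligonucleotide arrays in 3 groups. Germinal centre (GC) B cells came from mice on a Balb/c background that carry a transgenic heavy chain allele and a targeted deletion of the endogenous JH locus, either VH186.2-Tg JH KO, called B1-8 (n = 3 arrays), or V23-Tg JH KO, called V23 (n = 3 arrays). These mice had received 50 µg of NP-CGG, a hapten on a carrier protein, in alum by intraperitoneal injection, and λ+ PNA+ B220+ cells were sorted from the spleen 14 days later. Naive B cells were sorted from unimmunized Balb/c mice (n = 4 arrays). GC and naive cells thus differ by immunization, by transgene and by how they were stained for the sort, and the effects of these cannot be told apart. The labels do not state whether replicates come from separate animals, so p-values may reflect the spread between these samples alone. In bulk RNA, fewer cells of a type and less RNA per cell cannot be told apart.

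Kinesins are motor proteins that turn ATP hydrolysis into movement along microtubules or into the shortening of microtubule ends. One set of them builds the spindle, aligns chromosomes and completes cytokinesis in dividing cells, and another set carries vesicles, organelles and protein complexes in cells whether they divide or not. GC B cells are among the fastest dividing cells of the adult animal, while naive B cells rest outside the cell cycle. The promoters of many genes read late in the cell cycle carry a short element, TTTGAA, known as the cell cycle genes homology region, often beside CCAAT boxes that the factor NF-Y binds.

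The promoters of 4 mitotic kinesins and of 2 transport kinesins are shown as examples. These 4 are all among the 6 of 11 mitotic kinesins whose full window held both elements. They do not stand for every mitotic kinesin, since Kif18a held neither. Sequences are from RefSeq on GRCm38.p6 and run 5′ to 3′ on the gene's strand over positions −100 to 20 around the annotated transcription start. Capitals mark TTTGAA and CCAAT on either strand, so that the opposite strand's matches read TTCAAA and ATTGG. The windows lie at chr19:37376282-37376401 (plus strand) for Kif11, chr7:127042401-127042520 (minus strand) for Kif22, chr9:61946780-61946899 (minus strand) for Kif23, chr11:102925105-102925224 (minus strand) for Kif18b, chr11:53567269-53567388 (plus strand) for Kif3a and chr11:70700448-70700567 (plus strand) for Kif1c.
Kif11: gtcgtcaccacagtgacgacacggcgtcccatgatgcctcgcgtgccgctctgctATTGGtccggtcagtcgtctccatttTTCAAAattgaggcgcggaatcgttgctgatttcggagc
Kif22: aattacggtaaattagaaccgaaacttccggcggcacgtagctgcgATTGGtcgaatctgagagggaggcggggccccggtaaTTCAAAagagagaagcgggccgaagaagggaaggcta
Kif23: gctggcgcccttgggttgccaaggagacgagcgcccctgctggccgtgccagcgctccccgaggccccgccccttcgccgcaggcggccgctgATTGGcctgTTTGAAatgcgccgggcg
Kif18b: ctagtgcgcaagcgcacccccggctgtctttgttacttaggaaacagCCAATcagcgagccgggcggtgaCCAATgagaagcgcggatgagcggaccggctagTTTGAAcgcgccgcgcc
Kif3a: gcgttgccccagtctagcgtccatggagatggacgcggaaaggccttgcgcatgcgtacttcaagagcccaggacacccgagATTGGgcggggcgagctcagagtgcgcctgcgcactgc
Kif1c: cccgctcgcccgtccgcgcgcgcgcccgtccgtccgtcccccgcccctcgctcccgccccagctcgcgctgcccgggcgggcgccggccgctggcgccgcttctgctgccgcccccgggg
In Kif11 the TTTGAA match began 19 bases before the start and the CCAAT match 45 bases before it, and in Kif22 they began 17 and 54 bases before it. In Kif23 and Kif18b the TTTGAA match lay just after the start, at positions 3 and 4. Kif3a held 1 CCAAT match and no TTTGAA, and Kif1c held neither.

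Over the full window of 250 bases before to 50 after the start, TTTGAA on either strand occurred in 9 of the 11 mitotic kinesins with a window (81.8%), in 0 of 11 transport kinesins and in 2 of 9 other kinesins. It occurred in 18.1% of all 27025 promoter windows and in 13.4% of the 14453 windows of genes measured here. Of these measured genes, it occurred in 15.3% of the windows of genes called higher in GC than naive cells. For genes called lower it occurred in 10.8%. The mitotic kinesins without it were Kif18a and Kif2b. CCAAT occurred in 7 of 11 mitotic, 3 of 11 transport and 4 of 9 other kinesins. It occurred in 37.9% of all windows and 38.2% of those of measured genes. Both elements stood together in 6 of 11 mitotic kinesins (54.5%) and in no transport kinesin. They did so in 7.12% of all windows and 5.37% of those of measured genes. Of 17 spindle partners, genes whose products work with the mitotic kinesins, 14 had a window and 9 of these held TTTGAA. These matches describe letters within a window and do not show binding by a factor.

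On the brightest probe set of each gene, mitotic kinesins were higher in GC B cells. A few transport kinesins were called, in both directions and by at most 0.54 on the log2 scale. Each of these transport calls was lost with the mean of all probe sets of a gene. In GC cells of both lines against naive cells, 12 of the 33 tested kinesins rose, 4 fell and 17 were not called (limma with Benjamini-Hochberg adjustment over all genes tested, adjusted p under 0.05), beside 20.5% of all genes called higher and 21% called lower. Of the 10 tested mitotic kinesins 9 rose and 0 fell. Of the 15 transport kinesins 1 rose and 4 fell, and of the 8 tested other kinesins 2 rose and 0 fell. The median log2 fold change was 2.57 over the 12 mitotic kinesins, a factor of 5.93, against 0.02 over the 15 transport kinesins, 0.47 over the 10 other kinesins and 0.07 over all genes measured. On 9 mitotic kinesins every GC array lay above every naive array, which held for 17% of all genes tested.

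**Figure D1:**
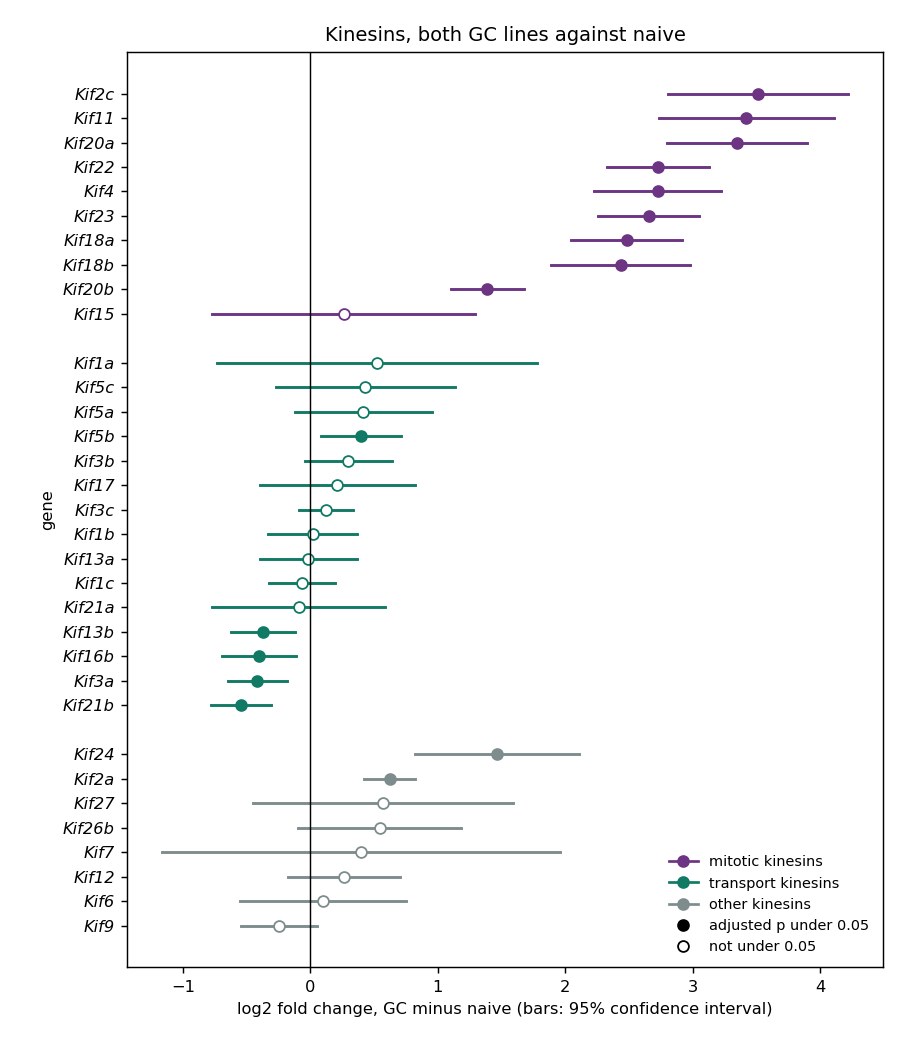
Log2 fold change of GC cells of both lines minus naive cells (horizontal axis) for each tested kinesin (vertical axis), with 95% confidence intervals as bars, filled points where the adjusted p was under 0.05, and colours for the class. The 9 called mitotic kinesins lie between 1.39 and 3.51, while the 15 transport kinesins lie between −0.54 and 0.52.

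Kif11 (probe set 1435306_a_at) encodes the motor that pushes spindle poles apart by sliding antiparallel microtubules. Its log2 signal was 10.73, 11.07 and 10.97 on the GC B1-8 arrays, 11.11, 11.25 and 11.36 on the GC V23 arrays and 7.16, 8.70, 7.08 and 7.69 on the naive arrays. All 6 GC arrays lay above all 4 naive arrays, and among naive arrays replicate 2 was highest. Kif11 rose by 3.42 ± 0.30 (SE) on the log2 scale, a factor of 10.7 (adjusted p = 3.56e-05). Fitted on their own, its dimmer probe sets gave 2.90 for 1452314_at and 1.38 for 1452315_at (adjusted p = 5.94e-05 and 0.000204). The size of the Kif11 rise thus depends on the probe set. Kif15 (1431718_at) encodes a second plus-end motor that helps to keep the spindle bipolar. Its values were low, at 4.98, 4.47 and 5.73 on GC B1-8, 6.39, 5.04 and 6.19 on GC V23 and 3.99, 5.51, 5.31 and 6.01 on naive arrays. These groups overlapped, and the difference of 0.26 had a 95% confidence interval from −0.77 to 1.29 (adjusted p = 0.687), which leaves room for a change of over 2-fold.

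Kif4 (1450692_at) encodes a motor bound to chromosome arms that also sets the length of the central spindle together with Prc1. Kif4 had 10.60, 10.73 and 10.50 on GC B1-8 arrays, 11.04, 11.00 and 11.04 on GC V23 arrays and 7.45, 8.64, 7.87 and 8.42 on naive arrays. Kif22 (1437716_x_at), a second chromosome-bound motor, pushes chromosome arms away from the poles. Kif22 had 12.84, 12.88 and 12.89 on GC B1-8 arrays, 12.91, 13.05 and 13.13 on GC V23 arrays and 9.72, 10.64, 10.05 and 10.50 on naive arrays. In both genes the GC groups lay wholly above the naive group. The rise was 2.72 ± 0.22 for Kif4 (adjusted p = 2.21e-05) and 2.73 ± 0.17 for Kif22 (adjusted p = 7.88e-06), each about 6.61-fold. A probe set ending in _x_at can share sequence with other genes, and the Kif22 probe set 1423813_at, which is not of that kind, gave 2.73 when fitted on its own.

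Kif2c (1437611_x_at) encodes a depolymerase that removes faulty attachments of microtubules to kinetochores. Kif2c had 11.49, 11.35 and 11.25 on GC B1-8, 11.65, 11.58 and 11.74 on GC V23 and 7.60, 9.07, 7.26 and 8.06 on naive arrays. Kif2c rose by 3.51 ± 0.31, a factor of 11.4 (adjusted p = 3.73e-05), and GC and naive arrays did not overlap. On their own its dimmer probe sets gave 2.64 for 1449060_at, 0.92 for 1432392_at and 0.54 for 1454221_a_at (adjusted p = 0.000202, 0.00304 and 0.0606), and the mean of all 4 gave 1.90 (adjusted p = 7.85e-05), so the size of the rise depends on the probe set. Kif18a (1424107_at) encodes a motor that shortens kinetochore microtubules and damps the movement of chromosomes at the metaphase plate. Kif18a had 10.07, 10.33 and 10.37 on GC B1-8, 10.27, 10.76 and 10.82 on GC V23 and 7.70, 8.43, 7.60 and 8.09 on naive arrays. Kif18b (1453226_at), its relative on astral microtubules, had 10.35, 10.56 and 10.15 on GC B1-8, 10.73, 10.61 and 10.71 on GC V23 and 7.63, 8.91, 7.75 and 8.05 on naive arrays. For both genes the lowest GC array was more than 1 log2 unit above the highest naive array. They rose by 2.48 ± 0.19 for Kif18a and by 2.43 ± 0.24 for Kif18b (adjusted p = 1.85e-05 for Kif18a and 6.59e-05 for Kif18b).

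Kif23 (1455990_at) encodes the motor of centralspindlin, the complex with Racgap1 that marks the site of cytokinesis. Kif23 had 11.33, 11.23 and 11.22 on GC B1-8 arrays, 11.50, 11.54 and 11.63 on GC V23 arrays and 8.37, 9.35, 8.57 and 8.73 on naive arrays. Kif20a (1449207_a_at) moves the chromosomal passenger complex to the central spindle. Kif20a had 10.47, 10.47 and 10.29 on GC B1-8 arrays, 10.71, 10.79 and 10.83 on GC V23 arrays and 6.76, 8.06, 6.83 and 7.34 on naive arrays. Kif20b (1439695_a_at), which acts at the midbody in late cytokinesis, had 10.15, 10.19 and 10.07 on GC B1-8 arrays, 10.21, 10.27 and 10.34 on GC V23 arrays and 8.65, 9.24, 8.64 and 8.74 on naive arrays. In all 3 genes the GC and naive arrays were separate. Kif23 rose by 2.65 ± 0.17 (adjusted p = 8.6e-06), Kif20a by 3.35 ± 0.24 (adjusted p = 1.35e-05) and Kif20b by 1.39 ± 0.13 (adjusted p = 4.32e-05). On the brightest probe sets Kif20b had the smallest of the called mitotic differences. On their own, its dimmer sets gave 2.12 for 1440924_at (adjusted p = 8.59e-05), and 0.69 for 1419792_at and −0.13 for 1449612_x_at, both uncalled. Kif14, a cytokinesis motor that binds citron kinase, ranged from 1.67 to 3.16 on GC arrays and from 1.20 to 3.96 on naive arrays. Kif2b, a depolymerase close to Kif2c, ranged from 1.71 to 3.50 on GC arrays and from 0.33 to 3.06 on naive arrays. At such low signal no difference was detectable for these last genes.

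**Figure D2:**
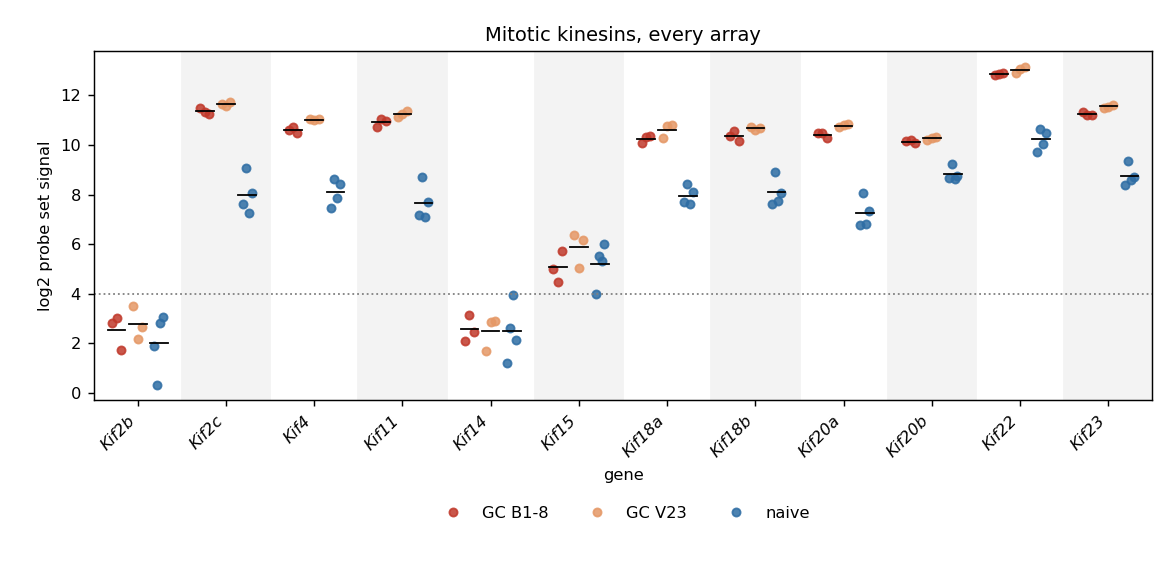
Log2 probe set signal (vertical axis) of each mitotic kinesin (horizontal axis) on every array, in the order GC B1-8, GC V23 and naive within a gene, with black bars for group means and a dotted line at log2 4, the level of the filter. In 9 genes the GC points lie above all naive points, while Kif2b, Kif14 and Kif15 are low and overlap.

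The mitotic kinesins rose in each line taken alone. In GC B1-8 against naive cells the 9 called mitotic kinesins rose by 1.32 for Kif20b to 3.36 for Kif2c, and in GC V23 against naive cells by 1.46 for Kif20b to 3.66 for Kif2c. These comparisons share the 4 naive arrays. Over all tested kinesins 11 rose and 2 fell in GC B1-8 against naive cells, beside 16.4% of all genes called higher and 17.3% called lower. In GC V23 against naive cells 12 rose and 3 fell, beside 18.2% called higher and 19.7% called lower. Of all calls in that comparison 48.0% were higher, and 60.1% were once arrays were centred on their medians. The 11 higher in B1-8 were also called higher in V23, and the 2 lower in B1-8, Kif3a and Kif21b, were also called lower in V23.

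Naive replicate 2 was the highest of the 4 naive arrays for 9 of the 10 tested mitotic kinesins, as it was for 23.2% of all genes tested. The median level of the mitotic kinesins relative to the naive mean was 2.39 to 2.47 on GC B1-8 arrays, 2.67 to 2.87 on GC V23 arrays and −0.47, 0.51, −0.20 and 0.08 on naive arrays 1 to 4. The median of 6 cycling cell markers was also highest on naive replicate 2, at 0.71, against −0.44, −0.32 and 0.01 on the others. Without naive replicate 2 the median mitotic fold change was 2.78, and without naive replicates 2 and 4 it was 2.88. The same 9 of 10 mitotic kinesins were called higher in GC cells with any single array left out and without these 2 arrays.

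Several other measures were set beside the groups. Counts of markers called stand beside 20.5% of all genes called higher in GC than naive cells and 21% called lower. All 8 neutrophil markers were higher in GC cells, with a summed signal of 37919 to 61823 on GC arrays and 2702 to 13941 on naive arrays. All 6 cycling cell markers were higher, with a summed signal of 44161 to 54265 on GC arrays and 10493 to 19793 on naive arrays. Of 5 erythroid markers 0 were higher and 1 was lower, with a summed signal of 303 to 637 on GC arrays and 375 to 777 on naive arrays. Of 5 NK cell markers 0 were higher and 3 were lower, with a summed signal of 881 to 1104 on GC arrays and 1702 to 2578 on naive arrays. Of 5 plasma cell markers 2 were higher and 1 was lower, with a summed signal of 21731 to 24563 on GC arrays and 10857 to 15584 on naive arrays. The 3′ minus 5′ difference of the Actb control, a sign of RNA quality, was 0.98 ± 0.20 (SD, n = 3) on GC B1-8, 0.78 ± 0.08 (n = 3) on GC V23 and 1.46 ± 0.17 (n = 4) on naive arrays. Their part in the kinesin differences was not tested. The sorted cells carried B cell markers on all arrays, with a summed signal of 65166 to 86212 on GC and 83016 to 94241 on naive arrays. Of these 6 B cell markers 0 were called higher and 2 lower in GC cells. In GC cells 5 of 6 GC markers were higher and 5 of 5 naive B cell markers lower.

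The partners of the mitotic kinesins rose with them: 17 of 17 spindle partners were called higher in GC cells, beside 20.5% of all genes. Their median log2 fold change was 2.74, against 0.07 over all genes measured. Cenpe, a kinetochore motor of the kinesin superfamily whose symbol does not begin with Kif, had 11.33, 11.12 and 11.27 on GC B1-8, 11.45, 11.48 and 11.62 on GC V23 and 7.84, 8.93, 7.49 and 8.01 on naive arrays. Kifc1, a minus-end motor that focuses spindle poles, had 8.72, 8.73 and 8.80 on GC B1-8, 9.61, 9.20 and 9.53 on GC V23 and 6.28, 6.99, 6.46 and 6.90 on naive arrays. Both were separate from the naive group, and they rose by 3.31 ± 0.25 for Cenpe and 2.44 ± 0.16 for Kifc1 (adjusted p = 1.58e-05 for Cenpe and 8.41e-06 for Kifc1). Tpx2, which targets Aurora A to spindle microtubules, rose by 3.48 ± 0.22. Plk1, a kinase of mitotic entry and exit, rose by 3.05 ± 0.30. Aurkb, the kinase of the chromosomal passenger complex, rose by 2.34 ± 0.17, Racgap1, the partner of Kif23 in centralspindlin, by 2.30 ± 0.19, and Prc1, the partner of Kif4 at the central spindle, by 2.08 ± 0.27 (largest adjusted p of the 5 = 0.000307). Hmmr, Ect2 and Aurka, which act in spindle assembly and cytokinesis, had the smallest p-values on the list, with rises of 3.23, 2.89 and 2.61. Naive replicate 2 was the highest naive array for 15 of the 17, as it was for 23.2% of all genes tested.

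**Figure D3:**
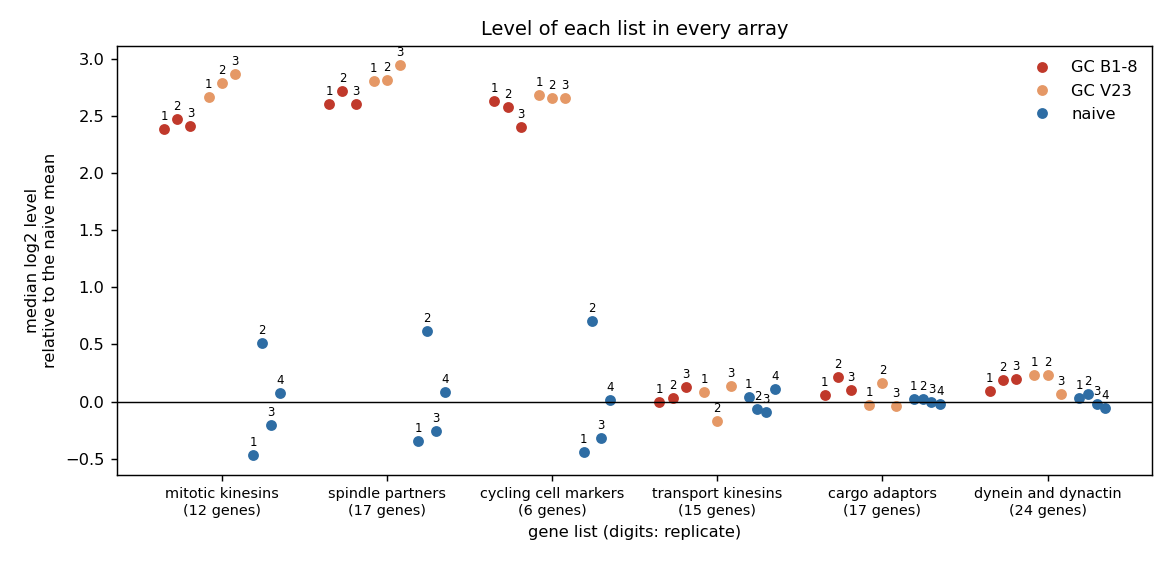
Median log2 level of each gene list relative to the naive mean (vertical axis) on every array, by list (horizontal axis), in the order GC B1-8, GC V23 and naive, with digits giving the replicate. Mitotic kinesins reach 2.39 to 2.87 on GC arrays, and transport kinesins stay between −0.17 and 0.14 on all 10 arrays.

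Transport kinesins were measured at a range of levels, and on the brightest probe set of each gene their differences lay between −0.54 and 0.52. Of the 15, Kif5b rose, Kif21b, Kif3a, Kif16b and Kif13b fell, and 10 were not called. For 4 of them, the genes that fell, every GC array lay below every naive array, which held for 18.5% of all genes tested. The 4 of 15 called lower stand beside 21% of all genes. After centring each array on its median Kif13b and Kif16b were no longer called (adjusted p = 0.113 and 0.0976), and after quantile normalization Kif21b alone remained lower and the class median was 0.31. Kif3b was called higher under both, at 0.40 and 0.54 (adjusted p = 0.0383 and 0.017). Kif3c was called higher after quantile normalization, at 0.32 (adjusted p = 0.0171). With the mean of all probe sets of a gene none of these 4 was called lower (adjusted p = 0.133 for Kif3a, 0.0805 for Kif13b, 0.366 for Kif16b and 0.519 for Kif21b). Kif13a, at −1.20 (adjusted p = 0.000149), and Kif1b, at −0.54 (adjusted p = 0.0053), were called lower in their place.

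**Figure D4:**
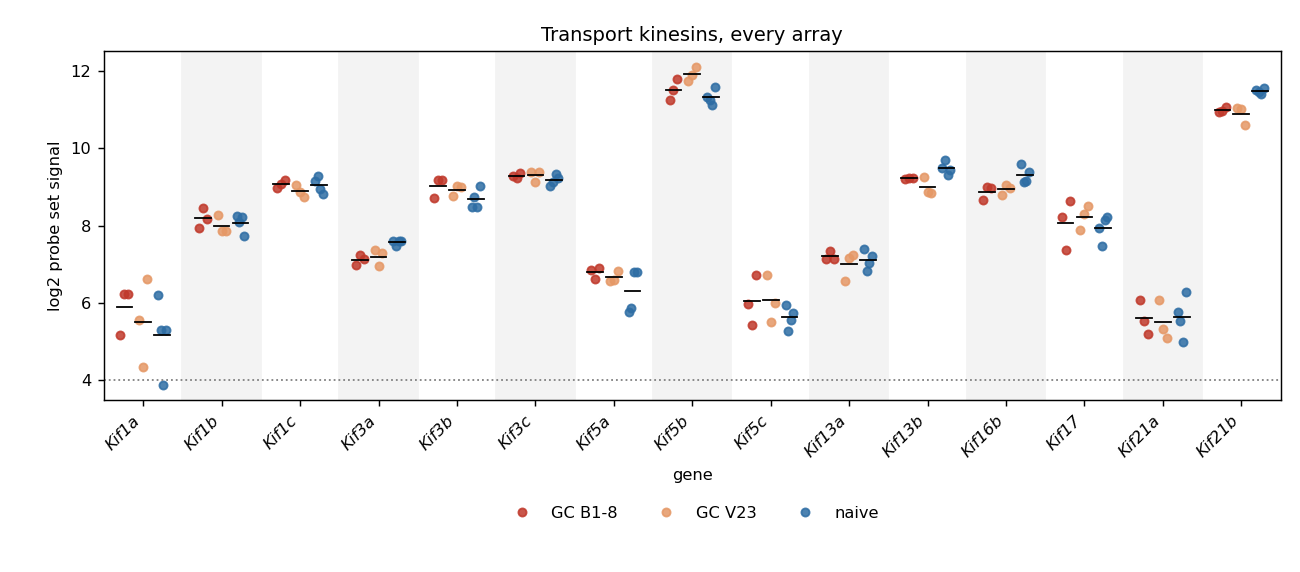
Log2 probe set signal (vertical axis) of each transport kinesin (horizontal axis) on every array, in the order GC B1-8, GC V23 and naive within a gene, with black bars for group means and a dotted line at log2 4. On these brightest probe sets the groups lie close together, and Kif3a, Kif13b, Kif16b and Kif21b have all GC points below the naive points.

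Conventional kinesin, a carrier of mitochondria, lysosomes and vesicles, has its heavy chains from Kif5a, Kif5b and Kif5c. Kif5b (1418430_at), the form found in most tissues, had 11.26, 11.51 and 11.79 on GC B1-8 arrays, 11.75, 11.90 and 12.10 on GC V23 arrays and 11.32, 11.26, 11.12 and 11.58 on naive arrays. The GC V23 arrays lay above all naive arrays and the GC B1-8 arrays overlapped them. Kif5b rose by 0.40 ± 0.14 (adjusted p = 0.0457), with 0.20 in GC B1-8 (adjusted p = 0.398) and 0.59 in GC V23 (adjusted p = 0.0186) against the same naive arrays. The lines did not differ at the threshold (B1-8 minus V23, adjusted p = 0.646). The call for both lines together ended when any one of several arrays was left out, each in turn. The adjusted p-values were 0.0777 and 0.0806 without GC B1-8 replicate 2 or 3, 0.0764 and 0.0899 without GC V23 replicate 2 or 3, and 0.0949, 0.104 and 0.128 without naive replicate 1, 2 or 3. It also ended with the mean of all probe sets, at 0.0220 (adjusted p = 0.905), with quantile normalization, at 0.31 (adjusted p = 0.109), and without both naive replicates 2 and 4, at 0.50 (adjusted p = 0.0659). The call in V23 against naive ended without GC V23 replicate 2 (adjusted p = 0.0513) or replicate 3 (0.071). The neuronal forms were not called, with a 95% confidence interval from −0.12 to 0.95 for Kif5a and from −0.27 to 1.13 for Kif5c.

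The heterotrimeric kinesin that carries cargo into cilia and along cytoplasmic microtubules pairs Kif3a with Kif3b or Kif3c and binds Kifap3. Kif3a (1449841_at) had 6.98, 7.25 and 7.13 on GC B1-8 arrays, 7.36, 6.95 and 7.29 on GC V23 arrays and 7.61, 7.47, 7.60 and 7.61 on naive arrays. All GC values lay below all naive values, the closest pair being 7.36 on a GC V23 array and 7.47 on a naive array. Kif3a fell by 0.42 ± 0.10 on the log2 scale (adjusted p = 0.0103), by 0.45 in GC B1-8 (adjusted p = 0.0183) and by 0.38 in GC V23 (adjusted p = 0.0372) against naive. The call in B1-8 ended without GC B1-8 replicate 1 (adjusted p = 0.07). The call in V23 ended without naive replicate 1, 3 or 4 (0.0824, 0.079 and 0.0725), GC B1-8 replicate 3 (0.0532), or GC V23 replicate 2 or 3 (0.124 and 0.0558). Its partners were not called in this fit, on their brightest probe sets and the values as deposited. Kif3b had a difference of 0.30, with a 95% confidence interval from −0.05 to 0.64, and Kif3c of 0.12, from −0.09 to 0.33. The adaptor Kifap3 had 9.87, 10.15 and 10.14 on GC B1-8 arrays, 9.71, 10.01 and 10.16 on GC V23 arrays and 8.88, 9.18, 8.62 and 9.09 on naive arrays. Kifap3 rose by 1.06 ± 0.14 (adjusted p = 0.000367). The Kif3a call in both lines together ended with quantile normalization (adjusted p = 0.107), intensity trend and robust moderation (0.0521) and the replicate number as a block (0.0581). Each of these settings also ended the Kif3a calls in B1-8 and in V23. The V23 call further ended with centred arrays (adjusted p = 0.134) and with only the groups compared (0.058). With the replicate number as a block Kif3b was called higher, at 0.41 (adjusted p = 0.0297). With the mean of all probe sets Kif3a was at −0.50 (adjusted p = 0.133) and Kif3b at 0.34 (0.0333). No direction is therefore given for the motor chains as a set. Kif17, a motor of the same family that acts alone, had 0.21 (95% confidence interval from −0.40 to 0.82).

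Kif21b and Kif21a belong to a family whose members walk to microtubule plus ends and restrain their growth. Kif21b (1435772_at) had 10.94, 10.97 and 11.07 on GC B1-8 arrays, 11.04, 11.02 and 10.60 on GC V23 arrays and 11.51, 11.46, 11.41 and 11.57 on naive arrays. Naive values were all above the GC values, and Kif21b fell by 0.54 ± 0.10 (adjusted p = 0.00263). It fell by 0.49 in GC B1-8 (adjusted p = 0.0135) and by 0.60 in GC V23 (adjusted p = 0.00445), and no single array left out ended these calls. With naive replicates 2 and 4 both left out the B1-8 difference was −0.46 (adjusted p = 0.0776). Averaging in the gene's other probe set, too dim to be tested on its own, gave 0.13 (adjusted p = 0.519). Kif21a differed by −0.09 (95% confidence interval from −0.77 to 0.59).

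Monomeric and dimeric motors of the Kif1 and Kif13 family carry vesicles, and Kif16b moves early endosomes through a lipid-binding domain. Kif16b (1429063_s_at) had 8.66, 8.996 and 8.97 on GC B1-8 arrays, 8.80, 9.05 and 8.98 on GC V23 arrays and 9.61, 9.12, 9.15 and 9.38 on naive arrays. Kif13b (1436056_at) had 9.21, 9.25 and 9.22 on GC B1-8 arrays, 9.26, 8.88 and 8.85 on GC V23 arrays and 9.48, 9.69, 9.32 and 9.44 on naive arrays. Each was lower on all GC arrays than on all naive arrays, with the closest pairs at 9.05 against 9.12 for Kif16b and 9.26 against 9.32 for Kif13b. Kif16b fell by 0.40 ± 0.13 (adjusted p = 0.0309) and Kif13b by 0.37 ± 0.11 (adjusted p = 0.0248). The Kif16b call ended without naive replicates 1 or 4 (adjusted p = 0.0839 and 0.0718), GC B1-8 replicate 1 (0.0594) or GC V23 replicates 1 or 3 (0.0619 and 0.0503). The Kif13b call ended without naive replicates 1 or 2 (0.0584 and 0.0707) or GC V23 replicates 2 or 3 (0.0542 and 0.0511). In single lines Kif13b fell by 0.49 in GC V23 (adjusted p = 0.0171), a call that ended without GC V23 replicate 2 (0.0667) or 3 (0.0659), and differed by −0.26 in GC B1-8 (adjusted p = 0.174). Kif16b differed by −0.44 in GC B1-8 and −0.37 in GC V23, neither of them called. Without probe sets ending in _x_at or _s_at both were called, at −0.54 and −0.52 (adjusted p = 0.0417 and 0.046). In GC B1-8 Kif16b was also called with a filter at log2 6 (0.0384), with intensity trend and robust moderation (0.0267) and without naive replicate 2 (0.0453). With 1 array left out, the number of kinesins called lower in both lines together was 2 without naive replicate 1 or without GC V23 replicate 3, and the number in V23 alone was 1 without GC V23 replicate 2 or 3.

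Kif1a, Kif1b, Kif1c and Kif13a were not called on the probe sets chosen by brightness. Their differences were 0.52, 0.02, −0.07 and −0.02, with 95% confidence intervals from −0.74 to 1.77 for Kif1a, −0.33 to 0.37 for Kif1b, −0.32 to 0.19 for Kif1c and −0.40 to 0.36 for Kif13a.

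The several probe sets of a gene often disagreed, in the mitotic and other classes as well as in the transport class. Some tested sets were called and some were not in the mitotic Kif2c, Kif20b and Kif23 and in Kif2a and Kif24. In Kif23, 1450827_at gave 1.23 on its own (adjusted p = 0.105). With every single-symbol probe set fitted on its own, 39.7% of 32240 probe sets were called in either direction, and of the 51 tested on transport kinesins 5 were higher and 13 lower. On mitotic kinesins 17 of 22 tested probe sets were higher and 0 lower, and on other kinesins 5 of 16 were higher and 0 lower. The widest disagreement was in Kif13a, a carrier of recycling endosomes. Its probe set 1455746_at had 5.09, 5.31 and 5.002 on GC B1-8 arrays, 5.44, 4.78 and 4.15 on GC V23 arrays and 8.41, 7.96, 8.35 and 8.61 on naive arrays. This was a fall by 3.37 ± 0.24 (adjusted p = 1.75e-05), and the probe sets 1451890_at and 1447853_x_at fell by 1.42 and 1.17, while the brightest, 1442252_at, overlapped between groups. The mean of all Kif13a probe sets was −1.20 in both lines together, −0.97 in GC B1-8 and −1.42 in GC V23 against naive (adjusted p = 0.000149, 0.00188 and 0.000185).

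Kif1b, a carrier of mitochondria and of synaptic vesicle precursors, gave falls by 1.76 (adjusted p = 0.000271), 0.73 and 0.68 on 1423994_at, 1451200_at and 1425270_at and differences of −0.34, −0.16 and −0.09 on the 3 uncalled dimmer sets. In Kif5b the dimmest of 6 probe sets, 1453524_at, fell by 1.72 (adjusted p = 0.0162), while 1418427_at and 1418431_at rose by 0.29 and 0.72. The brightest Kif5b set had an adjusted p of 0.0523 in this fit. In Kif3b 2 dimmer probe sets rose by 0.58 and 0.81, in Kif1a 1421053_at rose by 1.65, and in Kif13b 1433159_at fell by 1.32. In Kif3a 1 of 4 probe sets was called, the brightest, and the others gave 0.09, −0.43 and −1.23. The transcripts that each of these probe sets reads were not resolved here, so a gene with such disagreement has no single direction.

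**Figure D5:**
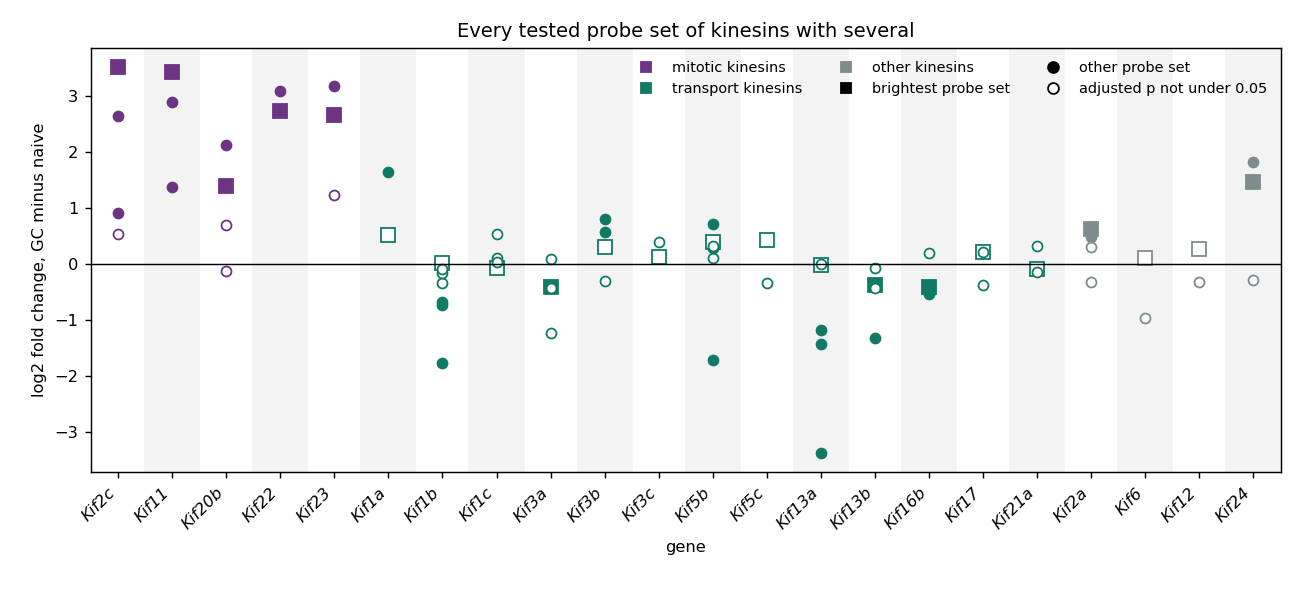
Log2 fold change of GC minus naive (vertical axis) for every tested probe set of each kinesin with several (horizontal axis), with squares for the brightest set, circles for the others and hollow symbols where the adjusted p was not under 0.05. Mitotic kinesins have no called set below 0, while Kif13a and Kif1b have an uncalled square near 0 above filled circles that reach −3.37 and −1.76.

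Of 17 measured cargo adaptors, the scaffolds and light chains that tie kinesins to cargo, 5 rose and 3 fell, beside 20.5% of all genes called higher and 21% called lower, so these counts are near those of all genes. Mapk8ip3, a scaffold that links conventional kinesin and dynein to vesicles, had 8.50, 7.49 and 8.20 on GC B1-8 arrays, 8.05, 7.72 and 7.37 on GC V23 arrays and 9.74, 9.60, 9.92 and 9.43 on naive arrays. All GC arrays lay below the naive arrays, and Mapk8ip3 fell by 1.78 ± 0.22 (adjusted p = 0.000225). Trak2, which ties conventional kinesin to mitochondria, rose by 0.57 ± 0.07 (adjusted p = 0.000229), Klc4, a light chain, fell by 0.53 ± 0.10 (adjusted p = 0.00272), and Rhot1, the mitochondrial receptor of the Trak proteins, fell by 0.30 ± 0.08 (adjusted p = 0.0201). The light chain Klc1 differed by −0.08 ± 0.09 (adjusted p = 0.534).

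Of 24 measured dynein and dynactin genes, whose products move cargo to microtubule minus ends and also work in mitosis, 9 rose and 5 fell, beside the same 20.5% and 21% of all genes, with a median of 0.18 against 0.07 over all genes measured. The share that fell is near that of all genes. Dync1h1, the heavy chain of cytoplasmic dynein, had 11.49, 11.23 and 11.48 on GC B1-8 arrays, 11.63, 11.33 and 11.35 on GC V23 arrays and 12.12, 12.16, 12.14 and 12.09 on naive arrays. The groups were separate, and Dync1h1 fell by 0.71 ± 0.09 (adjusted p = 0.000306). Spdl1, an adaptor that recruits dynein to kinetochores, rose by 1.22 ± 0.13 (adjusted p = 9.03e-05), and the light chain Dynlt3 by 0.79 ± 0.08 (adjusted p = 0.000105). Ndel1, a dynein regulator, fell by 0.61 ± 0.09 and Dctn6, a dynactin subunit, by 1.02 ± 0.16 (adjusted p = 0.000815 for Ndel1 and 0.000871 for Dctn6).

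Among the other kinesins, Kif24 and Kif2a rose. Kif24 (1457074_at), a centriolar motor that shortens microtubules and restrains the growth of cilia, had 8.68, 9.10 and 8.31 on GC B1-8 arrays, 8.89, 8.20 and 8.31 on GC V23 arrays and 6.35, 7.42, 7.07 and 7.64 on naive arrays. Kif2a (1450053_at), a depolymerase that acts at spindle poles and in neurites, had 10.30, 10.30 and 10.25 on GC B1-8 arrays, 10.21, 10.34 and 10.48 on GC V23 arrays and 9.75, 9.81, 9.69 and 9.51 on naive arrays. Neither gene overlapped between GC and naive cells. Kif24 rose by 1.46 ± 0.28 (adjusted p = 0.00298) and Kif2a by 0.62 ± 0.09 (adjusted p = 0.0005), both also called in each line alone. The mean of the 5 Kif2a probe sets gave 0.33 (adjusted p = 0.0514). Kif2a was not counted among the mitotic kinesins despite its role at spindle poles. Its rise was smaller than the 1.39 of Kif20b, the smallest called in that class. Of the 6 tested but uncalled others, Kif6, Kif7, Kif9 and Kif27 are tied to cilia or flagella. Their differences were 0.10, 0.40, −0.25 and 0.57 (95% confidence intervals from −0.55 to 0.75, −1.17 to 1.96, −0.54 to 0.05 and −0.45 to 1.59). Kif12 differed by 0.26 (from −0.18 to 0.70) and Kif26b, an atypical kinesin of developmental signalling, by 0.54 (from −0.09 to 1.18). Without GC B1-8 replicate 3 Kif26b was called, at 0.75 (adjusted p = 0.016).

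Between the lines, 0 of the 33 kinesins were called by limma, beside 0.0233% of all genes (4 of 17204), and the smallest adjusted p was 0.565. At an unadjusted p under 0.05 there were 2 kinesins, Kif27 and Kif5b, beside 7.72% of all genes. Kif27 (1445404_at) had 3.15, 3.86 and 2.96 on GC B1-8 arrays and 3.90, 5.47 and 5.37 on GC V23 arrays, a difference of −1.59 ± 0.56 at a low signal. In the mitotic class the difference, B1-8 minus V23, was below 0 in all 10 tested kinesins, beside 49.1% of all genes tested, with a median of −0.31 over all 12. In 8 of them every GC B1-8 array lay below every GC V23 array, which held for 6.63% of all genes tested, and no single one passed the test. The signals of marker lists also differed in range between the lines. The summed signal of the neutrophil markers was 59799 to 61823 on GC B1-8 and 37919 to 56367 on GC V23 arrays, and that of the cycling cell markers was 44161 to 53110 on GC B1-8 and 53120 to 54265 on GC V23 arrays, neither overlapping. All 7 macrophage markers had a difference above 0, with 3 of them separate, and their summed signal was 5564 to 6023 on GC B1-8 and 3538 to 5623 on GC V23 arrays, which overlap. Their part in the kinesin differences between the lines was not tested. Kif4 had the largest of these 8 differences, −0.42 ± 0.27 (adjusted p = 0.774), with a 95% confidence interval from −1.05 to 0.21. Kif20b had the smallest, −0.14 ± 0.16 (adjusted p = 0.882), with an interval from −0.50 to 0.23. All 17 spindle partners also had a difference below 0, with a median of −0.27, and none was called. Transport kinesins had a median of 0.10 and no gene whose arrays were separate in either direction, beside 7.07% of all genes tested with B1-8 above V23. Kif5b had −0.40 ± 0.17, with a 95% confidence interval from −0.79 to −0.00131 and an adjusted p of 0.646.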

How the data were processed

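RNA of 10 samples of sorted B cells was hybridized to 1 array each. The authors deposited log2 signals per probe set. The submitters' processing notes name GCRMA with no version. The unlogged signals, with the top and bottom 2% removed, averaged 500 on each array and had no floor, as MAS5 scaling would give, so the method that made them is unknown. They were used as deposited.

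Of 45101 probe sets, 34958 have 1 gene symbol, 932 several and 9211 none in the platform annotation, and 34754 of those with 1 symbol matched RefSeq by gene ID. The brightest single-symbol probe set stood for each of 18194 genes, and 17204 with log2 above 4 on at least 3 arrays entered the test, run by limma 3.58.1 under R 4.3.3 (1 fit of 3 group means over all arrays, 7 residual degrees of freedom, two-sided, Benjamini-Hochberg adjustment over all genes, threshold 0.05). The fit was tested on simulated data. Precision is limited by the number of arrays and by how far signals exceed background. Array medians were 6.81 ± 0.04 (SD, n = 3) for GC B1-8, 6.75 ± 0.04 (n = 3) for GC V23 and 6.88 ± 0.11 (n = 4) for naive.

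Samples were grouped by their titles. All kinesins could be named, and from each other list up to 5 genes with the smallest p, besides Cenpe, Kifc1, Prc1, Racgap1, Aurkb, Tpx2, Plk1, Kifap3, Klc1 and Dync1h1. The members, the lists, the classes and the pair of naive arrays left out together were chosen with earlier results of these data known. Alternatives covered the filter, the probe set, scaling, the variance model, the replicate number as a block, a 2-fold minimum and samples left out. The fit of every probe set on its own was added after seeing the data. Promoter windows (300 bases, RefSeq, GRCm38.p6, the first listed per gene) were searched for TTTGAA and CCAAT on both strands. Signals summed over a marker list are unlogged. No genome or protein table was used here.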

Additional observations from a re-analysis of the deposited data

Results flagged for a closer look

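Among the 33 tested kinesins, the naive group held 1 sample far from the others of its group. For Kif3a, naive replicate 2 was the lowest of 4 arrays at 7.47 on the log2 scale, while the others lay between 7.60 and 7.61, a gap of 0.884 of the group's range, which is past Dixon's 95% critical value. Chance alone puts about 1 in 20 such groups past this value. All 4 naive arrays stayed above all 6 GC arrays for this gene.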

How the results depend on the processing

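The mitotic calls were stable: 9 of the 10 tested mitotic kinesins were called higher in GC than naive cells, in both lines together and in each, under every alternative run with 1 value a gene. The numbers of kinesins called higher (12, 11 and 12) stayed within 1.5 times of these, and no kinesin was called between B1-8 and V23 under any. The 4 kinesins called lower in both lines together became 2 other genes with the mean of all probe sets of a gene (Kif13a at −1.20 and Kif1b at −0.54, which were also the 2 lower in each line), and the count was 2 with centred arrays, 1 after quantile normalization, 2 without naive replicates 2 and 4, 0 with a 2-fold minimum and 2 to 4 with 1 array left out. The 2 lower in B1-8 became 1 after quantile normalization, 0 without naive replicates 2 and 4, 0 with a 2-fold minimum and 1 to 3 with 1 array left out. The 3 lower in V23 became 1 with centred arrays, after quantile normalization and without naive replicates 2 and 4, 0 with a 2-fold minimum and 1 to 3 with 1 array left out. The mitotic median of 2.57 was 2.23 with the mean of all probe sets and 2.88 without naive replicates 2 and 4, that in B1-8 (2.40) was 1.98 and 2.73, and that in V23 (2.73) was 3.04 without these arrays. The transport median of 0.02 was 0.31 after quantile normalization, that in B1-8 (0.11) was 0.23, and that in V23 (−0.07) was 0.0725 with the mean of all probe sets, 0.0556 with centred arrays, 0.27 after quantile normalization, 0.12 without naive replicates 2 and 4 and −0.0979 to 0.0802 with 1 array left out. The mean of all probe sets turned Kif1b from 0.02 to −0.54, and to −0.45 in B1-8, Kif13a to −0.97 in B1-8, Kif5b to −0.0482 in V23, and Kif21b to 0.13, and to 0.28 in B1-8. On their own, and where the set or the brightest one was called, probe sets opposed the brightest one in Kif1b (−0.73, −1.76 and −0.68), Kif2a (−0.31), Kif3a (0.094), Kif5b (−1.72), Kif16b (0.19), Kif20b (−0.13) and Kif24 (−0.28). Sets of opposite sign with neither called, as in Kif3b, Kif6 and Kif17, are not listed. Centring moved the median of all tested genes in V23 against naive from 0.06 to 0.19. The causes were not tested.

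With the replicate number as a block, 1 kinesin was lower in both lines together, 0 in B1-8 and 1 in V23, and the transport median in V23 was 0.0678. Across genes, deviations of same-numbered samples correlated at −0.02 to 0.07, and those of differently numbered samples at −0.06 to 0.04. With so few arrays a group, these values cannot show whether the numbers pair the samples, and the labels do not say.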
